A study of Mus musculus with 10 samples.

Results

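The 10 genes described here encode nuclear subunits of cytochrome c oxidase, complex IV of the mitochondrial respiratory chain: Cox4i1, Cox5a, Cox5b, Cox6a1, Cox6b1, Cox6c, Cox7a2, Cox7b, Cox7c and Cox8a. They were chosen from measured values of these same libraries, with a view to setting Cox7c, Cox8a and Cox6a1 against the other 7, so their fold changes in the contrasts behind that choice are given as a description and without a test. All 10 genes are among the 18055 gene identifiers listed in the tables, and all 10 are among the 14097 genes that passed the filter on low counts. RNA sequencing was run on primary hepatocytes from wild-type C57BL/6 mice, obtained by collagenase perfusion of the liver and grown on collagen, in 5 groups of 2 libraries. Vehicle cells received neither fatty acid nor drug, PA cells 200 μM palmitate and LA cells 12 μM linoleate, each for 24 h. PA+NTP and LA+NTP cells received Neurotropin (NTP) 1 h ahead of the same fatty acid; its dose of 0.4 NU/mL comes from the study's description of its RNA sequencing samples, since the labels give none. NTP is a protein-free extract of inflamed rabbit skin that is prescribed against chronic pain. No group received NTP alone, and the labels do not say whether the 2 libraries of a group came from separate cultures or animals, so the errors below measure the spread between libraries, which may be technical.

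Cytochrome c oxidase takes electrons from cytochrome c, hands them to oxygen and pumps protons across the inner mitochondrial membrane. Its catalytic core is encoded by mitochondrial DNA, and the nuclear subunits surround that core and serve its assembly, stability and regulation. Some nuclear subunits exist in a widely expressed form and a form of heart and skeletal muscle, and liver uses the widely expressed forms, among them Cox6a1, Cox7a2 and Cox8a. Palmitate is a saturated and linoleate a polyunsaturated fatty acid, and both are used on hepatocytes to model the lipid load of fatty liver.

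The libraries held 13142588 to 60046937 expected counts, a 4.57-fold range, and the 10 genes were counted deeply in each of them, from 673 counts for Cox8a in PA replicate 1 to 14267 for Cox4i1 in LA+NTP replicate 2. Albumin (Alb) reached 1929 to 2818 FPKM (fragments per kilobase of transcript, scaled to sequencing depth, the deposited level per length), whereas the urea cycle enzyme Cps1 stood at 1.52 to 4.61 FPKM. Kupffer cell markers Clec4f and Vsig4 were at or near 0, at no more than 0.29 and 0.30 FPKM, while the macrophage marker Cd68 reached 122 to 287 FPKM, and the cholangiocyte keratin Krt7 and the endothelial Vwf did not exceed 0.13 and 0.04 FPKM. Transcripts rich in G and C read higher in some groups than in others: over 14020 genes, Spearman's rho between GC content and a gene's level relative to its mean over the libraries was 0.34 to 0.57 in the Vehicle, PA+NTP and LA+NTP libraries and -0.57 to -0.47 in the PA and LA libraries. Since this split follows the treatment, the fold changes of the fatty acids and of NTP over them are also given, for most genes named, after a smooth trend on transcript GC content was removed.

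Cox7c, Cox8a and Cox6a1 formed the part of the group with the widest range over the libraries. They lie on 3 chromosomes of GRCm38 (mm10), Cox7c at chr13:86044798-86046795, Cox8a at chr19:7215158-7217616 and Cox6a1 at chr5:115345652-115348958, each on the minus strand. Their start regions are shown with that of Cox5b (chr1:36691487-36693388, plus strand), the subunit whose level had the opposite order, so that the sequence ahead of genes with like and unlike levels can be set side by side. Each stretch runs from 250 bases before to 50 bases after the annotated start (RefSeq, GRCm38.p6), 5′ to 3′ on the gene's strand, with capitals where a searched motif matched.
Cox7c, chr13:86046746-86047045: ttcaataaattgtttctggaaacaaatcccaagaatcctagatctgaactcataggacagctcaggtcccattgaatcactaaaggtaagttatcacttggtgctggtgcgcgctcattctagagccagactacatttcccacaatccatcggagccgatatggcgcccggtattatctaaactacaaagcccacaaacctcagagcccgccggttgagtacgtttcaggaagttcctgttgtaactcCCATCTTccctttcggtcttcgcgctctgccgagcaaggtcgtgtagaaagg
Cox8a, chr19:7217567-7217866: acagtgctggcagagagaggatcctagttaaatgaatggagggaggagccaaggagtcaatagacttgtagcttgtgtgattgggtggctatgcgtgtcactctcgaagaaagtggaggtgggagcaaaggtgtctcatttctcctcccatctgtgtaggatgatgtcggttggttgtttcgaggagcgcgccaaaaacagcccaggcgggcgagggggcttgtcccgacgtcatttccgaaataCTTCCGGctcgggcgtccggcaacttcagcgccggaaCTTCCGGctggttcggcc
Cox6a1, chr5:115348909-115349208: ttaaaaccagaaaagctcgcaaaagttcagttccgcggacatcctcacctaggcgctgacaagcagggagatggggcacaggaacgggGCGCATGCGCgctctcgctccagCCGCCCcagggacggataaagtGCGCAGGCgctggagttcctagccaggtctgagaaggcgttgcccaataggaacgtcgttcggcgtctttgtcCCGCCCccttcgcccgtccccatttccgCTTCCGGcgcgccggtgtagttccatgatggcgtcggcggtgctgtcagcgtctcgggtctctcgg
Cox5b, chr1:36691237-36691536: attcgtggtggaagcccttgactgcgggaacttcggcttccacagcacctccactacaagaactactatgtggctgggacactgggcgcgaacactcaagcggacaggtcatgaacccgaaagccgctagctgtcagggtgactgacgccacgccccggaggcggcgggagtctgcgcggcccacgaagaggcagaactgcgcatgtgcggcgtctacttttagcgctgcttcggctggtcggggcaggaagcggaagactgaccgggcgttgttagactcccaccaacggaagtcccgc

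The motifs searched, on both strands, were cores of factors known from respiratory gene promoters, namely GCGCANGC for NRF1, CCGGAAG for the ETS family that includes GABPA, AAGATGG for YY1 and GGGCGG for SP1. Promoter sequences were given for 8 of the 10 genes, all but Cox4i1 and Cox6c. The Cox6a1 promoter held the NRF1 letters at 3 positions, 2 of them overlapping on opposite strands, the ETS letters once and the SP1 letters at 2 positions. The Cox8a promoter held the ETS letters at 2 positions, the Cox7c promoter held only the YY1 letters, across the start, and the Cox5b promoter held none of the 4. Cox6b1 also had the ETS letters, and Cox5a and Cox7a2 the SP1 letters. Of 32851 promoters of the same length, 9.95% held the NRF1 letters, 8.86% the ETS letters, 6.34% the YY1 letters and 35.7% the SP1 letters. Cox7c, Cox8a and Cox6a1 thus had no searched motif in common, apart from the ETS letters shared by Cox8a and Cox6a1.

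Cox7c, a small membrane-spanning subunit, was at 378 and 348 FPKM in the Vehicle libraries, 199 and 171 in PA, 179 and 178 in LA, 422 and 487 in PA+NTP and 434 and 505 in LA+NTP. Both fatty acid groups lay below every other library, and the 4 NTP libraries lay above the Vehicle pair. Its log2 fold change was -0.95 (SE 0.10) for PA against Vehicle, -0.98 (SE 0.10) for LA against Vehicle, 1.25 (SE 0.10) for PA+NTP against PA and 1.36 (SE 0.10) for LA+NTP against LA. On the linear scale the level was 0.518 and 0.508 of Vehicle with PA and LA, and 2.38 and 2.56 times the fatty acid level with NTP.

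Cox8a, the small subunit in its widely expressed form, measured 208 and 197 FPKM in Vehicle, 98.8 and 109 in PA, 105 and 102 in LA, 196 and 241 in PA+NTP and 221 and 229 in LA+NTP. PA and LA libraries were the 4 lowest, and the Vehicle values overlapped those of PA+NTP. The log2 fold changes came to -0.92 (SE 0.09) in both PA and LA against Vehicle, and to 1.01 (SE 0.09) and 1.08 (SE 0.09) for NTP over PA and over LA.

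Cox6a1, the widely expressed form of the subunit whose other isoform belongs to heart and muscle, was at 357 and 364 FPKM in Vehicle and between 192 and 209 in the 4 PA and LA libraries. With NTP it was at 396 and 411 over PA and at 403 and 397 over LA. The fatty acid libraries did not overlap the others, and the NTP libraries all lay above the Vehicle pair. Its log2 fold changes were -0.80 and -0.84 for PA and LA against Vehicle and 0.94 and 1.00 for NTP over PA and over LA, each with an SE of 0.06.

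**Figure D1:**
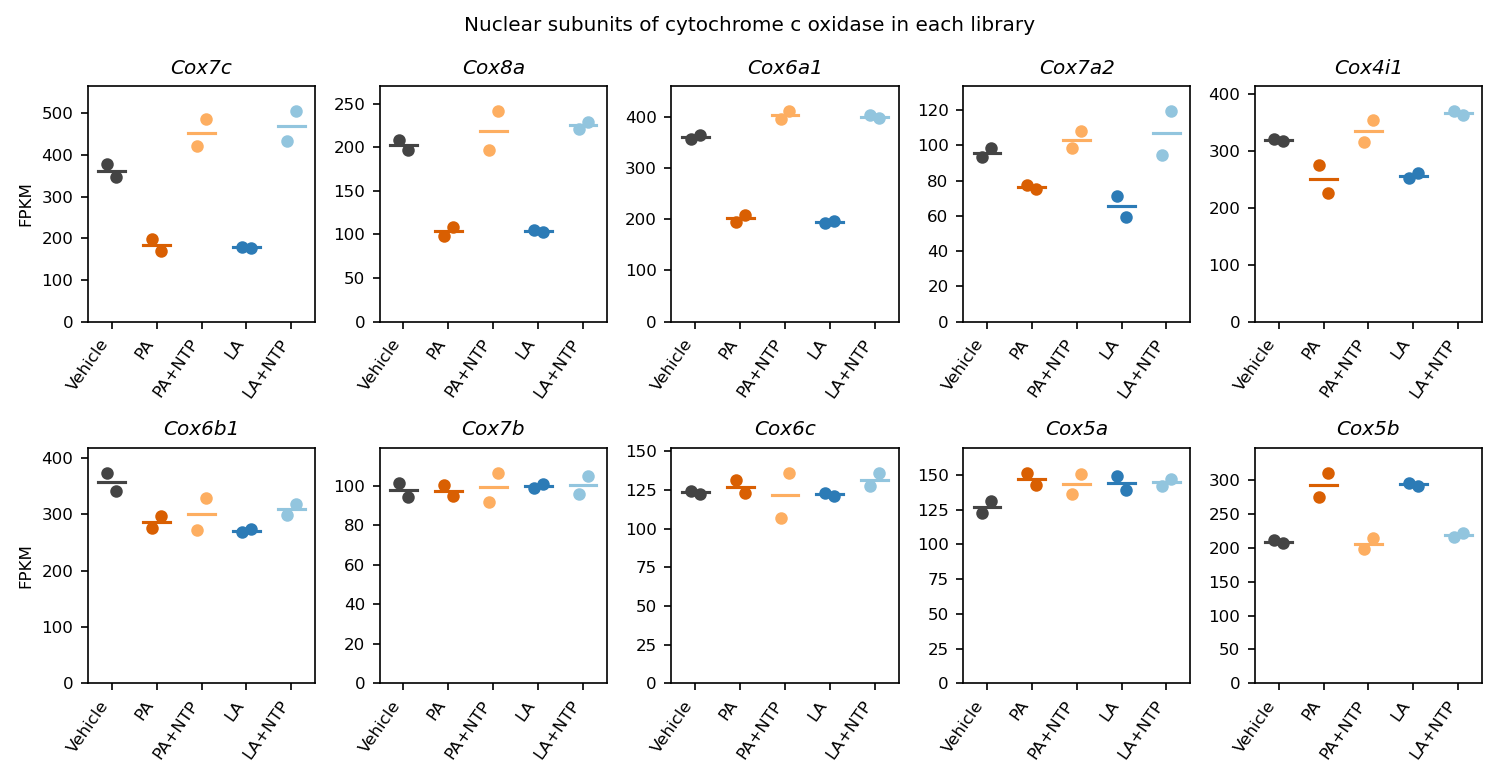
FPKM of each of the 10 genes (vertical axis, from 0, one scale per gene) in the 5 groups, with a point per library and a line at the mean of the 2 libraries. Cox7c, Cox8a and Cox6a1 sit lowest in PA and LA, Cox5b sits highest there at 275 to 311 FPKM, and Cox7b stays between 91.8 and 107 FPKM throughout.

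Cox5b, the zinc-binding subunit on the matrix side, had the opposite order. It measured 212 and 206 FPKM in Vehicle, 275 and 311 in PA, 296 and 291 in LA, 198 and 215 in PA+NTP and 216 and 222 in LA+NTP. The 4 fatty acid libraries were the highest of the 10 and did not overlap the rest. Its log2 fold changes of 0.52 (SE 0.07) and 0.54 (SE 0.07) against Vehicle, and of -0.57 (SE 0.07) and -0.46 (SE 0.07) for NTP over PA and LA, stayed within the fold of 1.5 that a call required. Between this gene and Cox7c the level ratio turned over: Cox5b stood at 0.560 and 0.594 of Cox7c with Vehicle, at 1.38 and 1.82 in PA, at 1.66 and 1.64 in LA, and between 0.439 and 0.498 in the 4 NTP libraries.

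Cox4i1, the subunit that joins the mitochondrially encoded core early and carries a binding site for ATP, had smaller differences in the same direction as Cox7c. It measured 321 and 318 FPKM in Vehicle, 275 and 227 in PA, 252 and 261 in LA, 315 and 354 in PA+NTP and 370 and 363 in LA+NTP. The PA and LA libraries were again the lowest, with log2 fold changes of -0.32 (SE 0.09) and -0.27 (SE 0.08) against Vehicle and of 0.37 (SE 0.08) and 0.48 (SE 0.08) for NTP.

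Cox7a2, the widely expressed form of a subunit at the face where complex IV meets complex III, was at 93.6 and 98.3 FPKM in Vehicle, 77.3 and 75.2 in PA, 71.4 and 59.5 in LA, 98.3 and 108 in PA+NTP and 94.3 and 119 in LA+NTP. PA and LA libraries did not overlap the others. The log2 fold changes were -0.30 (SE 0.11) with PA, -0.50 (SE 0.11) with LA, 0.38 (SE 0.11) with NTP over PA and 0.67 (SE 0.11) with NTP over LA. The 2 libraries of LA and of LA+NTP stood further apart for this gene than those of Vehicle or PA.

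Cox6b1, which faces the intermembrane space where cytochrome c docks, was highest in the Vehicle libraries, at 374 and 342 FPKM. The other 8 libraries ran from 269 to 330 FPKM, all below the Vehicle pair, and the NTP libraries overlapped the PA libraries. Its log2 fold changes were -0.28 (SE 0.09) with PA, -0.35 (SE 0.09) with LA, 0.01 (SE 0.09) with NTP over PA and 0.15 (SE 0.09) with NTP over LA.

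Cox5a, an early partner of Cox4i1 in assembly, Cox6c and Cox7b varied least. Cox5a ranged from 123 to 152 FPKM, with its 2 lowest values in the Vehicle libraries and log2 fold changes of 0.24 (SE 0.07) and 0.22 (SE 0.07) with PA and LA. Cox6c ranged from 107 to 136 FPKM, with both of these extremes in the PA+NTP pair. Cox7b ranged from 91.8 to 107 FPKM, again with both extremes in PA+NTP, so that its highest level was 1.16 times its lowest, against 2.96 times for Cox7c.

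Under the call used here, an adjusted p below 0.05 by edgeR's quasi-likelihood test with Benjamini-Hochberg adjustment over the 14097 genes together with a fold of at least 1.5, Cox7c, Cox8a and Cox6a1 were the 3 of 10 called lower under each fatty acid and the 3 of 10 called higher when NTP preceded PA. With NTP over LA Cox7a2 was called higher as well, giving 4 of 10. These counts came from the contrasts on which the genes were chosen and are a description. Of all genes tested, 8.92% were called lower and 6.00% higher with PA, 7.11% lower and 3.53% higher with LA, 5.11% lower and 8.74% higher with NTP over PA, and 7.57% lower and 11.7% higher with NTP over LA. Just inside the fold limit lay Cox7a2 with NTP over LA, at 1.59-fold, and just outside it lay Cox5b, at 1.44-fold and 1.45-fold above Vehicle with PA and LA. Cox5b passed the limit in both PA contrasts when PA replicate 1, the shallowest library, was left out, and for NTP over PA also without PA+NTP replicate 2. Cox7a2 was called lower with LA when LA replicate 1 was left out, and it lost its call for NTP over LA without LA replicate 2 or without LA+NTP replicate 2. It lost that call as well with the trend on GC content (0.55) or on transcript length (0.52) removed. With the length trend removed Cox5b was called in the opposite direction to the others, higher with LA (0.67) and lower with NTP over PA and over LA (-0.63 in both).

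The summed level of the 10 mRNAs and its make-up both varied between groups, without a test. The sum was 2257 ± 49.9 FPKM with Vehicle, 1769 ± 13.1 with PA, 1729 ± 8.52 with LA, 2385 ± 216 with PA+NTP and 2472 ± 98.9 with LA+NTP (SD, n = 2 each). Cox7c, Cox8a and Cox6a1 together made up 41.0% ± 0.16 of it with Vehicle, 27.7% ± 0.08 with PA, 27.6% ± 0.18 with LA, 45.1% ± 0.41 with PA+NTP and 44.3% ± 0.35 with LA+NTP. By mean FPKM the order of the genes changed accordingly. Cox7c and Cox6a1 were the highest 2 in Vehicle and in both NTP groups, although with Vehicle Cox7c (363 ± 21.1), Cox6a1 (360 ± 5.16) and Cox6b1 (358 ± 22.8) did not differ beyond their spread. Under the fatty acids alone Cox5b and Cox6b1 led at 293 and 286 FPKM in PA and at 294 and 271 FPKM in LA, and in PA these 2 overlapped. Cox7a2 and Cox7b were the lowest pair in every group.

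**Figure D2:**
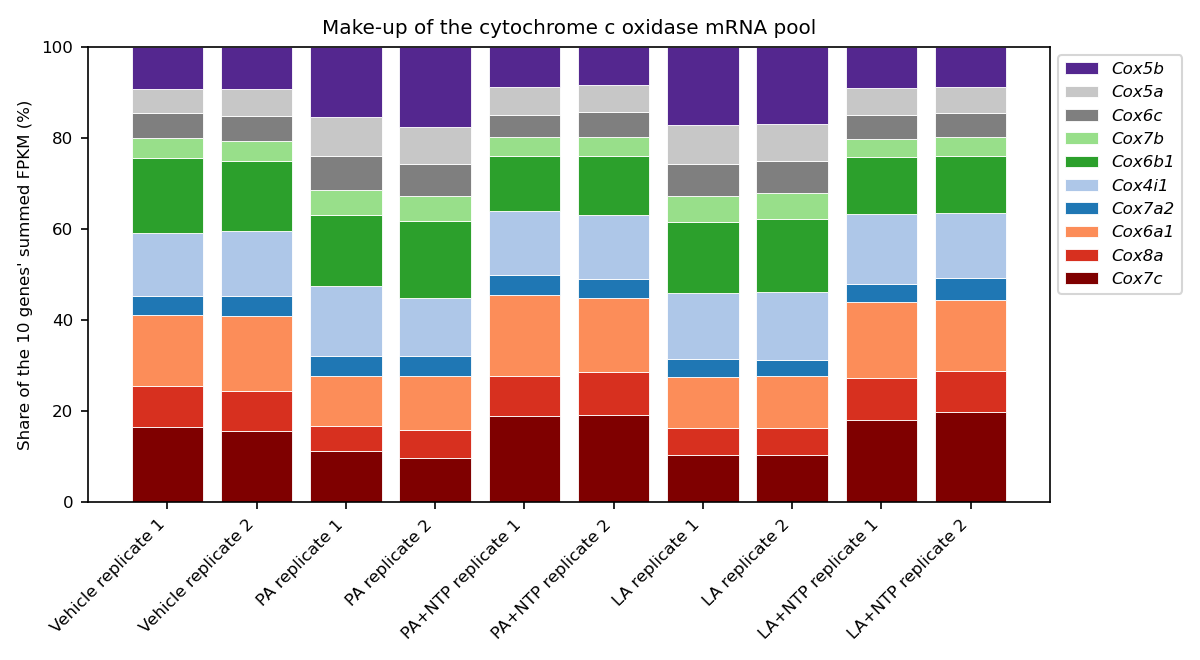
Share of the summed FPKM of the 10 genes (vertical axis, in percent) taken by each gene, with a stacked bar for each of the 10 libraries. The red tones at the base are Cox7c, Cox8a and Cox6a1, which reach 40.9% and 41.1% in Vehicle, 27.4% to 27.8% in PA and LA and 44.0% to 45.4% in the NTP libraries.

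The GC content of the transcripts differed between the 3 genes and went with part of their fold changes. Cox6a1 and Cox8a are GC-rich, at 58.8% and 58.5%, against a median of 50.1% over the tested genes, and Cox4i1 is next at 57.6%. Cox7c, at 46.7%, is the poorest of the 10 in G and C apart from Cox7b at 42.0%. The transcripts are also short, from 449 bases for Cox7c to 1176 for Cox7b, where the median tested gene has 2740 bases. After removal of the trend on GC content, the log2 fold changes of Cox7c were -1.09 and -1.14 with PA and LA and 1.40 and 1.56 with NTP, slightly larger than before. For Cox8a they were -0.55 and -0.50 with the fatty acids and 0.61 and 0.54 with NTP, and for Cox6a1 -0.41 and -0.42, then 0.52 and 0.45. Only Cox7c passed the call in all 4 contrasts after this step, with Cox8a passing with NTP over PA and Cox6a1 in none. Calls over all 14097 genes fell as well, from 1257 to 744 lower with PA and from 1002 to 337 lower with LA. Higher calls fell from 1232 to 562 with NTP over PA and from 1651 to 516 with NTP over LA. Cox4i1 came to within 0.10 of 0 in all 4, Cox5b kept values of 0.49 and 0.49 against Vehicle and of -0.53 and -0.40 with NTP, and Cox7b, level before, moved to -0.31 and -0.28 with the fatty acids and to 0.32 and 0.41 with NTP. Removal of a trend on transcript length moved Cox8a and Cox6a1 by less than the GC step, and it moved Cox7c towards 0, leaving Cox7c at -0.88 and -0.82, Cox8a at -0.86 and -0.78 and Cox6a1 at -0.74 and -0.70 with PA and LA. What gave rise to the GC trend was not tested.

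**Figure D3:**
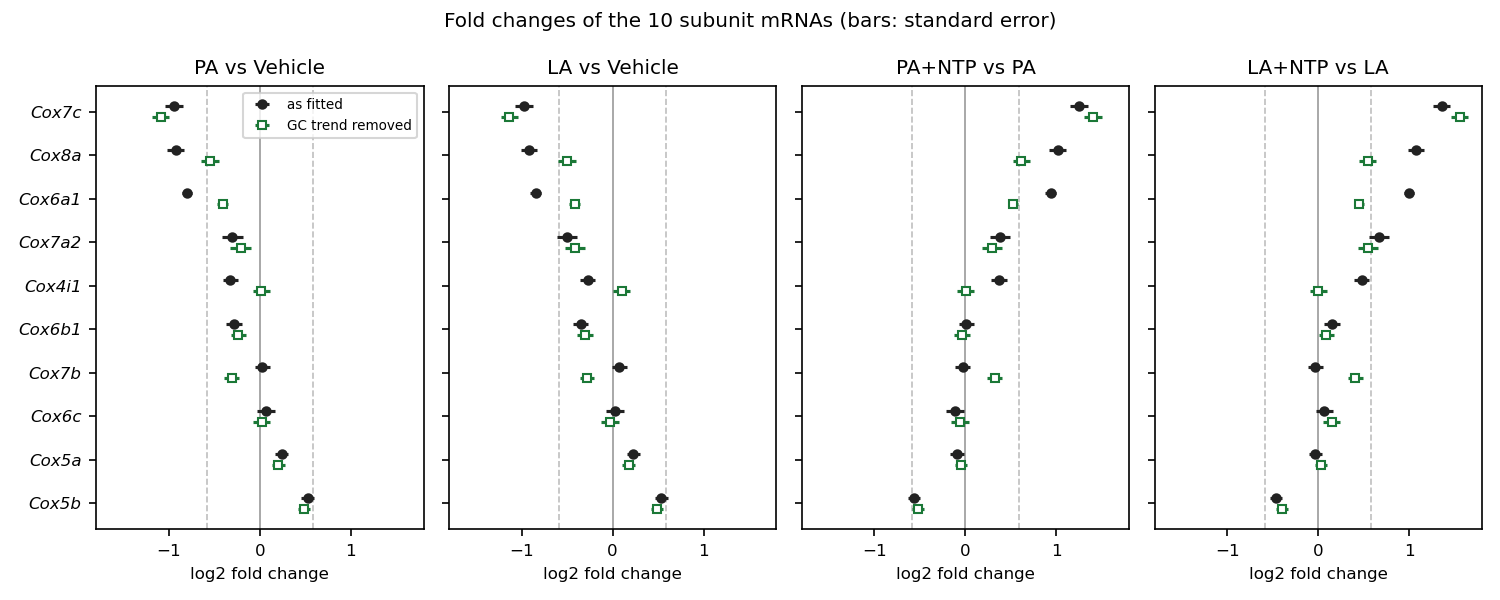
Log2 fold changes (horizontal axis) of the 10 genes in the 4 contrasts, as fitted by edgeR (filled circles) and after removal of the GC trend (open squares), with bars of 1 standard error and dashed lines at a fold of 1.5 either way. The squares of Cox8a and Cox6a1 move towards 0 (for Cox6a1 from -0.80 to -0.41 with PA), and those of Cox7c move away from it (from -0.95 to -1.09).

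**Figure D4:**
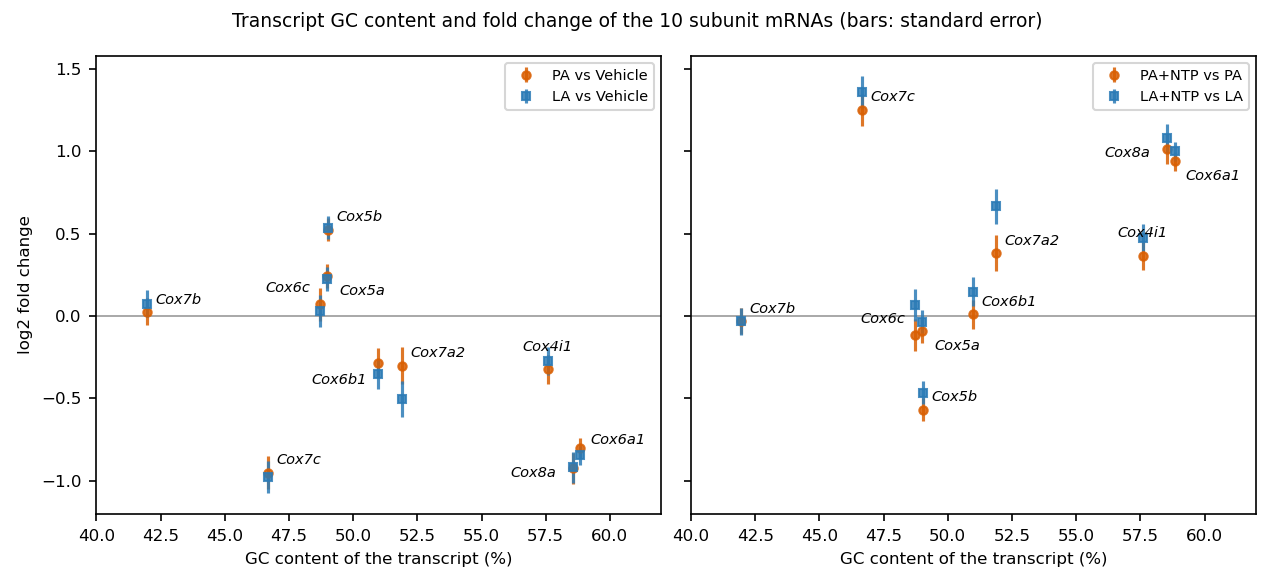
GC content of each transcript in percent (horizontal axis) against the fitted log2 fold change (vertical axis, bars of 1 standard error), for the fatty acids against Vehicle on the left and for NTP over each fatty acid on the right. Cox8a and Cox6a1 lie at the GC-rich end, above 58%, while Cox7c has like fold changes at 46.7%.

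Markers of other properties also moved with the groups. The summed FPKM of 10 hepatocyte markers was 3630 to 3817 with Vehicle, 2641 to 2856 with PA, 3674 to 3724 with LA, 3123 to 3447 with PA+NTP and 4272 to 4501 with LA+NTP. Alb alone gave 1929 to 2818 FPKM of these sums. The sum of 8 Kupffer cell and macrophage markers was 239 to 242 with Vehicle, 243 to 283 with PA, 158 to 161 with LA, 324 to 362 with PA+NTP and 220 to 236 with LA+NTP. Cd68 alone gave 122 to 287 FPKM of these sums, so they largely follow that gene. The log2 fold changes of the tested markers of this list ran from -1.90 to 2.47 with PA. The low sums of 8 stellate cell and fibroblast markers and of 8 endothelial markers were lower with PA and LA than with Vehicle or LA+NTP. The stellate sum was 19.9 to 20.1 with Vehicle, 12.6 to 14.3 with PA, 16.1 to 17.5 with LA, 16.3 to 18.7 with PA+NTP and 22.6 to 22.7 with LA+NTP. The endothelial sum was 39.7 with Vehicle, 29.2 to 30.9 with PA, 30.8 to 33.8 with LA, 31.03 to 35.81 with PA+NTP and 40.01 to 42.63 with LA+NTP. The 6 cholangiocyte markers summed to 414 to 716 FPKM, of which Spp1 alone gave 398 to 691. Called lower with PA were 4 of 10 hepatocyte markers (40%), 5 of 8 stellate markers (62.5%) and 2 of 5 tested cholangiocyte markers (40%). Of all genes 8.92% were called lower there. Of 7 tested Kupffer cell and macrophage markers 2 (28.6%) were called higher with PA, against 6.00% of all genes. None of the 7 tested endothelial markers was called with PA. With LA 1 of 8 stellate markers (12.5%) and 1 of 7 Kupffer cell and macrophage markers (14.3%) were called lower, against 7.11% of all genes. No hepatocyte, endothelial or cholangiocyte marker was called with LA. For PA+NTP against Vehicle 4 of 7 Kupffer cell and macrophage markers (57.1%) were called higher, against 171 of all 14097 genes. There 1 of 10 hepatocyte and 1 of 7 endothelial markers were called lower, against 231 of all genes. In these bulk samples fewer cells of a type and less RNA per cell cannot be told apart, and the part of cell make-up in the levels of the 10 genes was not tested.

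Several subunits share sequence with other genes. Words of 31 bases were pooled over all annotated protein-coding transcripts of a gene, so shared words may lie outside the transcript that was quantified. The pool of Cox7c held 1129 words and that of Cox5b 948, while their quantified transcripts have 449 and 584 bases. Of the 31-base words in the transcripts of Cox7c, 25.2% occur in 6 other annotated genes, none of which is listed in the tables. The share was 28.7% for Cox5b, where 3 of the 4 other genes (Igfbp4, Kremen1 and 1810058I24Rik) are listed in the tables, 23.8% for Cox6a1, 16.3% for Cox5a and 12.3% for Cox6c, and it was 0 for Cox8a and Cox4i1. Exons of Cox4i1, Cox5a and Cox6c overlap those of Emc8, Gm26631 and Vps13b on the other strand. How the counting split such reads is not given in the sources used here, so the values of these genes carry that uncertainty.

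Comparisons that the choice did not use directly set the NTP groups beside Vehicle, and palmitate beside linoleate. They draw on the same libraries, and in the fit each is a sum or difference of the contrasts behind the choice. They are therefore not independent of the values above. Their p-values and intervals are given as a description and do not test whether NTP brought the 10 genes back to the level of Vehicle. With PA+NTP against Vehicle none of the 10 passed the call, against 2.85% of all genes tested. Their log2 fold changes ran from -0.27 for Cox6b1 (95% interval -0.46 to -0.09, adjusted p = 0.061 by edgeR's quasi-likelihood test) to 0.30 for Cox7c (0.10 to 0.50, adjusted p = 0.057), and 3 had an unadjusted p under 0.05. The intervals of Cox8a (-0.10 to 0.28) and Cox6a1 (0.01 to 0.26) leave room for levels up to 1.21 and 1.20 times Vehicle.

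With LA+NTP against Vehicle none of the 10 passed either, against 0.0922% of all genes. Cox7c stood highest at 0.38 (95% interval 0.18 to 0.58, edgeR adjusted p = 0.089), 9 of the 10 were above 0, and 5 had an unadjusted p under 0.05. Cox6b1 was the exception at -0.20 (-0.39 to -0.02, adjusted p = 0.29). DESeq2 called none of the 10 in either comparison.

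Between palmitate and linoleate the 10 genes differed little. For PA against LA the log2 differences ran from -0.05 for Cox4i1 to 0.20 for Cox7a2, none passed by edgeR or DESeq2 (lowest edgeR adjusted p = 0.29, no unadjusted p under 0.05) where 3.23% of all genes did, and the 10 intervals together covered -0.23 to 0.44. For PA+NTP against LA+NTP all 10 differences were below 0, from -0.16 to -0.02, again with none passing in either tool (lowest edgeR adjusted p = 0.23, no unadjusted p under 0.05), where 3.82% of all genes passed. The difference between the NTP effect under PA and that under LA was -0.11 for Cox7c (95% interval -0.40 to 0.19), -0.06 for Cox8a (-0.34 to 0.21) and -0.06 for Cox6a1 (-0.24 to 0.12), with edgeR adjusted p of 0.91, 0.95 and 0.91. None of the 10 had an unadjusted p under 0.05 there. No gene at all passed that test by edgeR (0% of 14097, although 1029 had an unadjusted p under 0.05), whereas DESeq2 called 4 genes.

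The muscle, testis and other isoforms of the same subunits were close to absent. Cox6a2 and Cox7a1 did not exceed 1.14 and 1.46 FPKM in a library, and Cox4i2, Cox6b2 and Cox8b stayed at or below 0.29. The associated genes were well expressed. Cox7a2l was at 194 ± 7.47 FPKM with Vehicle and 204 ± 6.68 with PA (SD, n = 2). Ndufa4, now counted as a complex IV subunit, was at 319 ± 11.6 and 276 ± 21.5, and the electron carrier Cycs at 69.7 ± 4.25 and 88.5 ± 1.05. Of this list of 10 isoforms and associated genes 4 were tested. None of them passed edgeR's or DESeq2's call in the fatty acid and NTP contrasts, in each of which 1 or 2 had an unadjusted p under 0.05.

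Among 30 assembly factors, all tested, 2 were called lower with PA, 2 lower with LA, 2 higher with NTP over PA and 5 higher with NTP over LA. The 2 of 30 make 6.67%, no more than the 8.92%, 7.11% and 8.74% of all genes called in those contrasts and directions, and the 5 of 30 make 16.7% against 11.7%. Higd2a, a factor for assembly of complex IV and its supercomplexes, was called in all 4, with log2 fold changes of -0.99 (SE 0.10), -0.92 (SE 0.10), 0.81 (SE 0.10) and 1.09 (SE 0.10). Sco2, a copper chaperone of the core, fell with LA by 0.85 (SE 0.09) on the log2 scale and rose with NTP over PA by 0.87 (SE 0.08) and over LA by 1.14 (SE 0.08). Cox14 was the second gene called lower with PA, at -0.60 (SE 0.15), and the other genes that rose with NTP over LA were Slirp (0.68), Coa3 (0.61) and Cox10 (0.61), the last of them a heme-synthesis enzyme. The median log2 fold change of the list was 0.10 with PA and -0.06 with NTP over LA, where the median over all genes was -0.01 and 0.01. With the GC trend removed, Higd2a was at -0.84 with PA and 0.88 with NTP over LA, and Slirp at 1.07 in the latter. Sco2 (59.4% GC) was then at -0.40 with LA, 0.43 with NTP over PA and 0.56 with NTP over LA, Cox14 at -0.38 with PA, and Coa3 and Cox10 at 0.37 and 0.31 with NTP over LA, and none of these 4 kept a call.

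Of 9 complex III subunits Uqcr10 was the one called lower with PA and LA (11.1%, against 8.92% and 7.11% of all genes), by 1.03 (SE 0.12) and 1.01 (SE 0.11), and it rose with NTP by 1.08 (SE 0.11) and 1.28 (SE 0.11), from levels of 62.3 to 65.8 FPKM in the fatty acid libraries to 129 to 179 in the NTP libraries. Cyc1, the cytochrome c1 subunit, was at -0.55 (SE 0.09) and -0.56 (SE 0.09) with the fatty acids, short of the fold limit, and was called higher with NTP over LA at 0.63 (SE 0.08). Uqcrh fell with NTP over PA by 0.73 (SE 0.07). Of 17 ATP synthase subunits 3 fell with PA and 5 with LA, and 2 and 5 rose with NTP over PA and LA. These make 17.6%, 29.4%, 11.8% and 29.4% of the list, against 8.92%, 7.11%, 8.74% and 11.7% of all genes, and the lists were not compared by a test. Atp5g2, one of the genes for the membrane ring subunit c, had values of -0.91, -0.97, 1.07 and 1.25 (SE 0.09, 0.09, 0.09 and 0.08), and Atp5g1, another, fell with LA by 0.71 and rose by 0.65 and 0.96. Of 36 complex I subunits, 1 rose and 1 fell with each fatty acid, while 2 and 4 rose and 2 and 2 fell with NTP over PA and LA. Each of these shares, from 2.78% to 11.1%, lay below that of all genes in the same contrast and direction except the lower calls with NTP over PA (5.56% against 5.11%). Ndufa12 rose with the fatty acids, by 0.88 (SE 0.10) and 0.84 (SE 0.10), and fell by 0.96 (SE 0.10) in both NTP contrasts. With the GC trend removed, Uqcr10 was at -0.79, Atp5g2 at -0.62 and Ndufa12 at 0.92 with PA, Uqcrh at -0.73 with NTP over PA, and Atp5g1 at -0.63 with LA and 0.57, no longer called, with NTP over PA. Ndufs7 (60.7% GC), called at -0.63 with LA and 0.82 with NTP over LA, was then at -0.12 and 0.17, and Cyc1 at 0.28 with NTP over LA. The ATP synthase gene Atp5mpl (42.9% GC) moved away from 0 instead. It was at -0.37 and -0.44 with PA and LA and at 0.47 and 0.63 with NTP, called only in the last. With the GC trend removed it was at -0.67, -0.76, 0.79 and 1.03, called in each.

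Over the 10 libraries the genes whose log2 level followed the mean of Cox7c, Cox8a and Cox6a1 most closely among 96 other respiratory genes were Atp5g2 (Pearson's r = 0.996), Uqcr10 (0.990), Oxa1l (0.985), Atp5g1 (0.981) and Ndufa7 (0.978). Among 6123 genes with a mean of at least 10 FPKM they were Pdlim7 (0.997), Atp5g2, Bcar1, Rin3 and Slc46a1 (0.995 to 0.996). Among the other 7 subunits r was 0.91 for Cox4i1 and for Cox7a2, 0.49 for Cox6b1, -0.07 for Cox6c, -0.15 for Cox7b, -0.45 for Cox5a and -0.93 for Cox5b. These coefficients are descriptions over libraries that fall into 2 sets, PA and LA against the rest, and that share their GC trend.

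Of 13 regulators of respiratory genes, all tested, 1 was called lower with PA, 2 lower with LA, 3 higher with NTP over PA, and 3 higher and 1 lower with NTP over LA. The lower calls make 7.69% and 15.4% of the list against 8.92% and 7.11% of all genes, and with NTP the higher calls make 23.1% against 8.74% and 11.7% and the lower call 7.69% against 7.57%. Esrra, the orphan nuclear receptor that acts with PGC-1 coactivators, was at 12.3 and 11.5 FPKM in Vehicle, 6.34 and 7.86 in PA, 6.67 and 7.46 in LA and 12.3 to 12.9 in the NTP libraries. Its log2 fold changes were -0.68 (SE 0.10), -0.71 (SE 0.10), 0.73 (SE 0.10) and 0.80 (SE 0.10), but its transcript holds 61.8% GC, and with the trend removed it stood at -0.18 with PA and 0.09 with NTP over LA. Ppargc1b, which encodes the coactivator PGC-1β, was low, between 0.49 and 1.71 FPKM. It was at -0.54 (SE 0.20) with PA, short of the fold limit. It was called lower with LA (-1.06, SE 0.21) and higher with NTP over PA (0.99, SE 0.20) and over LA (1.17, SE 0.20). After the GC step it was at -0.20 with PA, not called, and at -0.68, 0.62 and 0.68 in the other contrasts, each still called. Pprc1 rose in both NTP contrasts, by 0.59 (SE 0.07) and 0.64 (SE 0.07), and Creb1 fell with NTP over LA by 0.61 (SE 0.07). With the GC trend removed Pprc1 was at 0.31 and 0.28 and Creb1 at -0.22, and neither was called. Nrf1, Gabpa and Yy1, whose motifs were searched above, ranged from 7.05 to 9.90, from 14.6 to 22.0 and from 40.8 to 60.0 FPKM and were not called in these contrasts.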

How the data were processed

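Gene expression was measured by RNA sequencing in 10 libraries of primary mouse hepatocytes. For each library the deposited table lists an expected count, an FPKM and a transcript length per gene. Following the study's methods and the submitters' processing notes, reads were aligned with HISAT and Bowtie2 to mm10 and quantified with RSEM; tool versions, annotation release and strandedness were not found in these sources. The deposited expected counts are estimates without normalization between libraries, and the deposited FPKM values are scaled by the authors to transcript length and library size; the deposited transcript length was used for the length trend. Group and replicate came from the labels, whose replicate numbers differ from those of the deposited tables. Of 18055 gene identifiers, 17998 were matched to a symbol by identifier and 11 by accession.

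Expected counts were rounded and fitted in R 4.3.3 with edgeR 4.0.16 (TMM, filterByExpr, quasi-likelihood test, 5 groups of 2 libraries in 1 fit, common biological coefficient of variation 0.068), and p-values were adjusted by Benjamini-Hochberg over 14097 genes. A call needed an adjusted p under 0.05 and a fold of at least 1.5. No exact permutation test was used, since 2 libraries against 2 cannot go below p = 0.333. Alternatives were DESeq2 1.42.0, limma 3.58.1 on log2(FPKM + 1) and log2(FPKM + 0.1), library-size scaling, no filter, a mean FPKM of at least 1, no fold threshold, only the groups compared, a replicate block, removal of a loess trend (span 0.4) on GC content or length, and leaving out each library. GC content was the mean over a gene's GENCODE transcripts, matched by RefSeq accession, gene identifier or symbol, and was had for 99.3% of genes. The script was tested on simulated data. The 10 genes and the gene lists were chosen with earlier results of these data known. The rule for named genes was all 10 members, up to 6 called genes of each respiratory list by largest fold, and the 5 genes most like the mean of Cox7c, Cox8a and Cox6a1. Not all called genes that this rule gives are named in the text. Mitochondrially encoded subunits were not analysed here.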

Additional observations from a re-analysis of the deposited data

How the results depend on the processing

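The number of the 10 genes called was 3 with PA, 3 with LA, 3 with NTP over PA and 4 with NTP over LA, and DESeq2, library-size scaling, both filters, both limma fits and the fit of only the groups compared gave the same counts. With no fold threshold the counts were 8, 8, 6 and 6, by construction, since fewer conditions had to be met. Of all 14097 genes, 3310 were then called higher and 3101 lower with PA, and 2938 and 2886 with LA. With NTP over PA these were 3060 and 3246, and with NTP over LA 3646 and 3611. With the GC trend removed the counts of the 10 genes were 1, 1, 2 and 1. Of all 14097 genes 744 were then called lower with PA and 337 with LA, and 562 and 516 higher with NTP over PA and over LA. Without this step these were 1257, 1002, 1232 and 1651. Removal of the length trend gave 3, 4, 4 and 4 of the 10 genes, and 1194, 954, 1150 and 1508 of all genes in these directions. Among the 10 genes, Cox5b was 1 of those called in the last 3, in the opposite direction, while Cox7a2 lost its call in the last. Leaving out each library in turn gave 3 to 4 in each of the 4 contrasts; where a group was left with 1 library, it was assumed to vary like the others. In the other 5 comparisons the count was 0 under all of these settings. With the replicate number of the labels as a replicate block the counts were 3, 3, 3 and 4. The numbers do not pair the libraries: the correlation of same-numbered deviations between groups ran from -0.07 to 0.13. Of 440 values of the 10 genes under the 11 settings other than leaving out a library, 380 moved by less than the spread between libraries and 60 by more. The 40 values with no fold threshold are among the 380 by construction, since that setting leaves the fold changes as they are. The fit of only the groups compared drops the libraries of the other groups. No called value changed sign under these settings or, among 400 values, with a library left out. Values not called did change sign, such as Cox6b1 with NTP over PA, from -0.17 to 0.16 with a library left out. With 2 libraries a group, small differences between the fatty acids or between NTP and Vehicle are limited by the intervals given beside them.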
